A study of Mus musculus with 9 samples.

Results

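Leukocytes leave the blood by holding on to the vessel wall, and 5 genes for the endothelial side of that contact were followed in mouse tumours: the selectins Sele and Selp and the immunoglobulin-type adhesion molecules Icam1, Icam2 and Vcam1. The members were the rows of the count tables whose gene name matched one of these symbols, 5 of 42454 names, and all 5 passed the filter on low counts that left 18243 names for testing. The tumours had been formed in C57BL/6J mice by MC38 cells, a mouse colorectal carcinoma line, and were collected 21 days after inoculation. The CD43-KO group (5 tumours) came from MC38 cells with a knockout of CD43, the sialomucin encoded by Spn, and the Vec group (4 tumours) from MC38 cells labelled as vector and wild type for CD43. The knockout is a property of the implanted cells in the labels, which give no clone number for the line and no age, sex, batch or pairing for the animals. RNA of whole tumour tissue was sequenced, so a level is that of a mixture of carcinoma and host cells, and fewer cells of a type cannot be told apart from less RNA per cell.

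The adhesion of leukocytes runs in steps. E-selectin (Sele) and P-selectin (Selp) bind sialylated and fucosylated glycans on leukocyte glycoproteins and let the cells roll, and CD43 is among the glycoproteins that E-selectin can bind. Firm arrest then depends on leukocyte integrins that bind ICAM-1, ICAM-2 and VCAM-1. E-selectin is made almost only by endothelium that has been activated by cytokines such as interleukin 1 and TNF. P-selectin is stored in endothelial cells and platelets, ICAM-2 is a resting endothelial and leukocyte protein, and ICAM-1 and VCAM-1 are also made by macrophages, fibroblasts and some tumour cells.

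The libraries held between 44814061 and 62194418 counts in CD43-KO and between 60751738 and 72114385 in Vec tumours. CD43-KO replicate 3 was the shallowest and stood apart from the others, with summed levels of 8 skeletal muscle genes at 1280 CPM (counts relative to library size after TMM scaling) and of 6 adipocyte genes at 457.5 CPM. The summed muscle level was 78.8 to 135 CPM in the other CD43-KO and 93.4 to 118 CPM in the Vec tumours. Spn itself was at 6.81 to 33.6 CPM in CD43-KO and 41.04 to 53.8 CPM in Vec tumours, so the groups did not overlap in the targeted gene. All 19 endothelial markers were detected, with a summed level of 186.5 to 369 CPM in CD43-KO and 237 to 269 CPM in Vec tumours. Of the 9 epithelial carcinoma markers only 4 passed the filter, Cdx2 was at 0 counts in every library, and Epcam was at 0.518 ± 0.406 CPM in CD43-KO (SD, n = 5) and 0.654 ± 0.541 CPM in Vec tumours (SD, n = 4).

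The stretches before the start sites of Sele, Selp and Icam1 are shown because the first and the last of these genes are textbook targets of the cytokine-activated factor NF-kB. Each is 250 bases long, ends at the base before the start in RefSeq, and runs 5′ to 3′ on the plus strand of GRCm38.p6 (RefSeq). Capitals mark matches to the motifs described after the sequences.
Sele, chr1:164047984-164048233: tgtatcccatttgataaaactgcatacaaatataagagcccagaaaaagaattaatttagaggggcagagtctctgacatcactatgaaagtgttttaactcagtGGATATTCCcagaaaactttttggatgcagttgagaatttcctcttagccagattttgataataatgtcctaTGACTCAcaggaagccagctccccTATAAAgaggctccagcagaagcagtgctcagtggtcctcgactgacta
Selp, chr1:164115014-164115263: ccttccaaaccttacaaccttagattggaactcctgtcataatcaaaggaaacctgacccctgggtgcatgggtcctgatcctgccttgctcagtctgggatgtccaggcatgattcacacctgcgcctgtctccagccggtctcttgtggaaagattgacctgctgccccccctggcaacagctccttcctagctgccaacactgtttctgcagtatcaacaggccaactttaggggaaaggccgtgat
Icam1, chr9:21015690-21015939: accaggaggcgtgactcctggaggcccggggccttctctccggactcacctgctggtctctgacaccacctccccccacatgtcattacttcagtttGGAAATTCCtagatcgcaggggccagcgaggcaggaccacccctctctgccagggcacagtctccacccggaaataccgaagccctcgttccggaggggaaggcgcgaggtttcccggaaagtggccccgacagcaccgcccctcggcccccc
The RefSeq table gave a promoter for 3 of the 5 members; Icam2 and Vcam1 are named only. The motif GGANATTCC, a form of the kB site, searched like the others on both strands, was found in the Sele stretch as GGATATTCC, 145 to 137 bases before the start, and in the Icam1 stretch as GGAAATTCC, 153 to 145 bases before the RefSeq start, which lies upstream of the GENCODE start given for Icam1 with its values. It was found in 0.819% of 32851 promoter stretches of the same length, and its letters were settled after these promoters had been read. Sele also held an AP-1 motif (TGACTCA, in 4.46% of stretches) 73 to 67 bases before the start and a TATA box (TATAAA, in 12.4% of stretches) 49 to 44 bases before it. The NF-kB consensus, a more frequent pattern found in 7.25% of stretches, had no match in any of the 3, and Selp held none of the 4 motifs in this window. No motif overlapped another.

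E-selectin transcripts were scarce in all tumours, and their mean was higher in CD43-KO tumours. Sele (chromosome 1, 164048234 to 164057677, GRCm38, plus strand) was counted 63, 58, 33, 26 and 14 times in CD43-KO replicates 1 to 5, against 8, 18, 13 and 6 times in Vec replicates 1 to 4. After scaling for depth these were 0.963, 0.894, 0.766, 0.443 and 0.237 CPM in CD43-KO replicates 1 to 5, and 0.126, 0.268, 0.183 and 0.111 CPM in Vec replicates 1 to 4. In 4 of 5 CD43-KO tumours the level lay above every Vec tumour, and CD43-KO replicate 5 lay below Vec replicate 2. The means were 0.661 ± 0.310 CPM in CD43-KO (SD, n = 5) and 0.172 ± 0.0712 CPM in Vec tumours (SD, n = 4). The log2 fold change of CD43-KO over Vec was 1.92 ± 0.497 (SE), which did not pass edgeR's quasi-likelihood test after adjustment over all names (adjusted p = 0.192). The two-sided exact permutation test of the 9 log2 values gave p = 0.0238, where 0.00794 is the smallest p that all splits of 5 against 4 can give. The highest of the 9 Sele counts was 63, so counting error alone is wide for this gene.

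P-selectin transcripts overlapped between the groups. Selp (chromosome 1, 164115264 to 164150026, plus strand), a member of the same selectin cluster as Sele, was at 1.10, 1.51, 0.743, 1.63 and 1.05 CPM in CD43-KO replicates 1 to 5, against 1.14, 1.16, 0.535 and 0.628 CPM in Vec replicates 1 to 4. CD43-KO replicate 3, whose Sele level was high, had the lowest Selp level of its group, and CD43-KO replicate 4 the highest. The means were 1.21 ± 0.363 CPM in CD43-KO (SD, n = 5) and 0.865 ± 0.330 CPM in Vec tumours (SD, n = 4), with a log2 fold change of 0.48 ± 0.341 (SE, edgeR adjusted p = 0.504; exact permutation p = 0.190). Of 10 platelet and megakaryocyte markers, 6 were tested, 4 of them above 0 in log2 fold change (CD43-KO over Vec) and 2 below. Their summed level was 35.5 to 146 CPM in CD43-KO and 37.4 to 49.04 CPM in Vec tumours, most of it Pf4 (platelet factor 4). Pf4 was at 62.9 ± 45.2 CPM in CD43-KO (SD, n = 5) and 31.7 ± 5.45 CPM in Vec tumours (SD, n = 4; log2 fold change 0.99 ± 0.444 SE). The platelet integrin gene Itga2b was at 5.48 ± 1.24 CPM in CD43-KO (SD, n = 5) and 6.30 ± 1.09 CPM in Vec tumours (SD, n = 4), the von Willebrand receptor gene Gp1ba at 0.582 ± 0.228 CPM in CD43-KO and 0.780 ± 0.305 CPM in Vec tumours, and the collagen receptor gene Gp6 at 0 counts in all libraries. Their part in the Selp level was not tested.

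Icam1 had a higher mean in CD43-KO tumours that rested on 3 of the 5. Icam1 (chromosome 9, 21015985 to 21028817, plus strand) encodes the ligand of the integrins LFA-1 and Mac-1 and was at 28.2, 34.3, 44.8, 13.2 and 10.7 CPM in CD43-KO replicates 1 to 5. It was at 8.46, 11.4, 12.8 and 12.9 CPM in Vec replicates 1 to 4. CD43-KO replicates 1, 2 and 3 were above every Vec tumour by a wide margin, replicate 4 was just above the highest Vec tumour, and replicate 5 lay among the Vec values. The means were 26.2 ± 14.4 CPM in CD43-KO (SD, n = 5) and 11.4 ± 2.07 CPM in Vec tumours (SD, n = 4). The log2 fold change was 1.20 ± 0.398 (SE, edgeR adjusted p = 0.246), and the exact permutation test gave p = 0.103. Without CD43-KO replicate 3 the log2 fold change was 0.92 (edgeR adjusted p = 0.224).

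Icam1 was highest in the tumours with the highest leukocyte genes. All 9 macrophage markers had a log2 fold change above 0 (median 0.585, and 0.301 without CD43-KO replicate 3), with a summed level of 787 to 2669 CPM in CD43-KO and 946 to 1199 CPM in Vec tumours. The complement gene C1qb was at 427 ± 204 CPM in CD43-KO (SD, n = 5) and 314 ± 29.7 CPM in Vec tumours (SD, n = 4), and the mannose receptor gene Mrc1 at 111 ± 73.4 CPM in CD43-KO and 55.4 ± 6.81 CPM in Vec tumours. All 7 pan-leukocyte markers lay above 0 too (median 0.571, and 0.305 without CD43-KO replicate 3), with sums of 453 to 1413 CPM in CD43-KO and 474 to 614 CPM in Vec tumours. In CD43-KO replicates 1 to 5 the macrophage genes summed to 1454, 1891, 2669, 787 and 886 CPM, so the 3 tumours with the highest Icam1 were the 3 with the highest macrophage sum, in the same order. Their part in the Icam1 level was not tested apart from a fit with a score as a covariate. With the pan-leukocyte score as a covariate the log2 fold change of Icam1 was 0.41 (edgeR adjusted p = 0.352), and that of Sele was 1.46 (edgeR adjusted p = 0.217).

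Icam2 levels did not separate the groups in either direction. Icam2 (chromosome 11, 106377656 to 106388075, minus strand), which encodes a second LFA-1 ligand, was at 5.17, 7.22, 8.36, 3.42 and 3.65 CPM in CD43-KO replicates 1 to 5, against 4.33, 5.12, 5.66 and 6.36 CPM in Vec replicates 1 to 4. All Vec values lay inside the range of the CD43-KO values. The means were 5.56 ± 2.18 CPM in CD43-KO (SD, n = 5) and 5.37 ± 0.858 CPM in Vec tumours (SD, n = 4), and the log2 fold change was 0.05 ± 0.277 (SE, edgeR adjusted p = 0.943). The mean of the log2 CPM values was 0.02 lower in CD43-KO tumours (exact permutation p = 0.952), so even the sign depended on the estimate.

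Vcam1 was the only member with a lower mean CPM in CD43-KO tumours. Vcam1 (chromosome 3, 116109949 to 116129688, minus strand) encodes the ligand of the integrin VLA-4 and was at 159, 162, 198, 197 and 170 CPM in CD43-KO replicates 1 to 5. It was at 258, 228, 211 and 202 CPM in Vec replicates 1 to 4, so every CD43-KO tumour lay below every Vec tumour, by a small margin between CD43-KO replicate 3 and Vec replicate 4. The means were 177 ± 18.8 CPM in CD43-KO (SD, n = 5) and 225 ± 24.9 CPM in Vec tumours (SD, n = 4). The log2 fold change was -0.34 ± 0.106 (SE, edgeR adjusted p = 0.227), and the exact permutation test gave p = 0.0238. The gap between the groups depended on the scaling: with total counts alone CD43-KO replicate 4 was at 201 CPM and Vec replicate 4 at 179.5 CPM, and the exact permutation p was 0.0556. Of 10 fibroblast and pericyte genes, which mark another source of Vcam1, 6 lay above 0 and 4 below in log2 fold change, with sums of 2223 to 5707 CPM in CD43-KO and 3092 to 4415 CPM in Vec tumours. The collagen gene Col3a1 was at 1400 ± 544 CPM in CD43-KO (SD, n = 5) and 2167 ± 638 CPM in Vec tumours (SD, n = 4), and the pericyte receptor gene Pdgfrb at 44.2 ± 8.90 CPM in CD43-KO and 58.9 ± 11.7 CPM in Vec tumours. Other genes of the list had the opposite sign: Col1a2 was at 913 ± 368 CPM in CD43-KO and 705 ± 54.3 CPM in Vec tumours, and Lum, which encodes the matrix protein lumican, at 36.0 ± 26.7 CPM in CD43-KO and 16.1 ± 3.11 CPM in Vec tumours. The part of these genes in the Vcam1 level was not tested.

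**Figure D1:**
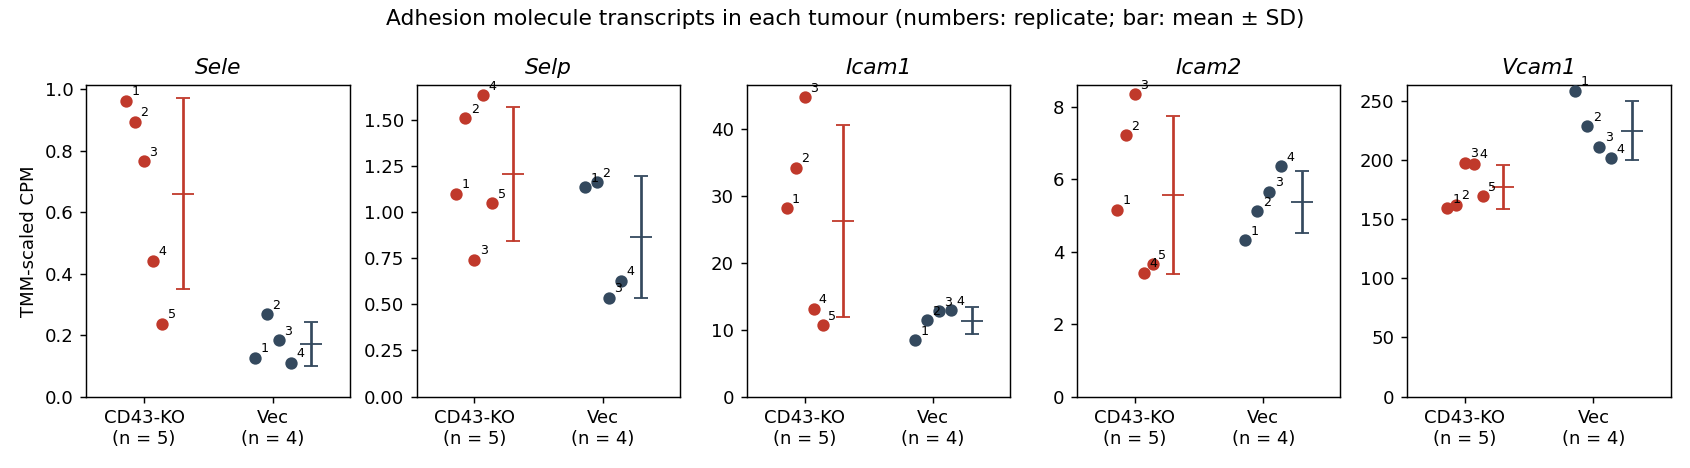
TMM-scaled CPM of the 5 members in each tumour, CD43-KO on the left and Vec on the right of each panel; points are tumours with their replicate number, and bars give the mean ± SD. Vcam1 is the only panel without overlap (159 to 198 CPM in CD43-KO and 202 to 258 CPM in Vec tumours), and CD43-KO replicates 1 to 3 carry the high Sele and Icam1 values.

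By edgeR with Benjamini-Hochberg adjustment, 0 of the 5 members passed, and of all names tested 0% were called higher and 0% lower. Without CD43-KO replicate 3, the library that stood apart, the log2 fold changes were 1.86 for Sele, 0.60 for Selp, 0.92 for Icam1, -0.15 for Icam2 and -0.39 for Vcam1, and 0 members passed. With all 9 libraries, 7.75% of names were higher and 7.63% lower at an unadjusted edgeR p under 0.05. So were 3 of the 5 members, Sele and Icam1 higher and Vcam1 lower. DESeq2 on the same counts called 1.48% of names higher and 2.18% lower, and 2 members, both higher: Sele (adjusted p = 0.0233) and Icam1 (adjusted p = 0.0403). Both calls were lost in some fits that left out a single tumour, and the number of names called moved as well. DESeq2 called 612 names in all with every library. Without Vec replicates 1 to 4 in turn it called 195, 283, 1101 and 272 names. Without CD43-KO replicates 1 to 5 in turn it called 210, 227, 1204, 1180 and 469. In these fits the log2 fold change was 1.75 to 2.22 for Sele and 0.919 to 1.39 for Icam1. The DESeq2 call of Sele was lost without Vec replicate 1, Vec replicate 4 or CD43-KO replicate 1 (adjusted p = 0.121, 0.0997 and 0.126), held without Vec replicate 2, Vec replicate 3 or CD43-KO replicate 5, and had no adjusted p without CD43-KO replicate 2, 3 or 4. The DESeq2 call of Icam1 held without Vec replicate 3 or CD43-KO replicates 4 or 5 and was lost in the other 6 fits (adjusted p from 0.0599 to 0.175). Vcam1 was at an adjusted p of 0.0579 with DESeq2 and was called lower in 3 of the 9 fits that left out a tumour. These were the DESeq2 fits without Vec replicate 3 (adjusted p = 0.0488), CD43-KO replicate 3 (adjusted p = 0.0169) or CD43-KO replicate 4 (adjusted p = 0.0267). They were also the 3 fits with the most names called, 1101, 1204 and 1180. By comparison, limma's voom test, weighting the samples by quality, put Vcam1 below the threshold as lower (log2 fold change -0.47, adjusted p = 0.0340) with 0.904% of names called higher and 1.82% lower. Of all names, 3.50% had every CD43-KO value below every Vec value, as Vcam1 did, and 2.08% had every CD43-KO value above every Vec value, as no member did. The log2 fold change was above 0 for 4 of the 5 members and for 54.0% of all names.

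The levels of the members spanned a wide range, with neighbours that overlapped. Per kilobase of exon (GENCODE M21), Vcam1 was the most abundant, at 20.0 ± 2.12 CPM per kb in CD43-KO (SD, n = 5) and 25.4 ± 2.81 CPM per kb in Vec tumours (SD, n = 4). Icam1 was at 6.02 ± 3.30 CPM per kb in CD43-KO and 2.61 ± 0.474 CPM per kb in Vec tumours, and Icam2 at 2.92 ± 1.14 CPM per kb in CD43-KO and 2.82 ± 0.451 CPM per kb in Vec tumours. Selp was at 0.274 ± 0.0823 CPM per kb in CD43-KO and 0.196 ± 0.0748 CPM per kb in Vec tumours, and Sele at 0.227 ± 0.106 CPM per kb in CD43-KO and 0.0591 ± 0.0244 CPM per kb in Vec tumours. Vcam1 lay above Icam1, and Icam2 above Selp, in all 9 tumours. The order of Icam1 and Icam2 went with the group: per kilobase Icam1 was the higher in 5 of 5 CD43-KO and in 0 of 4 Vec tumours. In Vec replicates 2 and 3 the margin was small, with Icam1 at 2.61 and 2.93 CPM per kb and Icam2 at 2.69 and 2.97 CPM per kb, and the order there rests on the exon lengths used. Selp was above Sele in 3 of 5 CD43-KO and in 4 of 4 Vec tumours. Among CD43-KO tumours the level of Icam1 varied most (coefficient of variation 54.8%, against 18.2% among Vec tumours) and that of Vcam1 least (10.6%, against 11.1% among Vec tumours).

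A ratio of the CPM of 2 members within a tumour does not depend on how the libraries are scaled, and 10 such ratios were compared after the levels had been seen. Their log2 differences and p-values were computed from log2 CPM with a prior count of 2. These therefore depend on that prior count and are not fully free of the scaling. Icam1 over Icam2 was 5.46, 4.75, 5.36, 3.85 and 2.93 in CD43-KO replicates 1 to 5, against 1.96, 2.22, 2.26 and 2.03 in Vec replicates 1 to 4. The Vec tumours were nearly alike in this ratio, and every CD43-KO tumour was above them, replicates 4 and 5 included. The means were 4.47 ± 1.08 in CD43-KO (SD, n = 5) and 2.12 ± 0.146 in Vec tumours (SD, n = 4). The log2 ratio differed by 1.04 (two-sided exact permutation p = 0.0159, adjusted p = 0.0529 over the 10 ratios). Sele over Icam2 also had no overlap, at 0.0648 to 0.186 in CD43-KO and 0.0174 to 0.0523 in Vec tumours, with a log2 difference of 1.69 (exact permutation p = 0.00794, adjusted p = 0.0529). Of all other names tested, 2.62% had a ratio to Icam2 that was higher in every CD43-KO than in every Vec tumour, and 0.203% one that was lower in every CD43-KO tumour. Sele over Vcam1 separated the groups too (exact permutation p = 0.0159, adjusted p = 0.0529), but 10.6% of all names were higher against Vcam1 in every CD43-KO tumour and 0.214% lower. No ratio passed after adjustment, and adjusted p ranged up to 0.413.

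**Figure D2:**
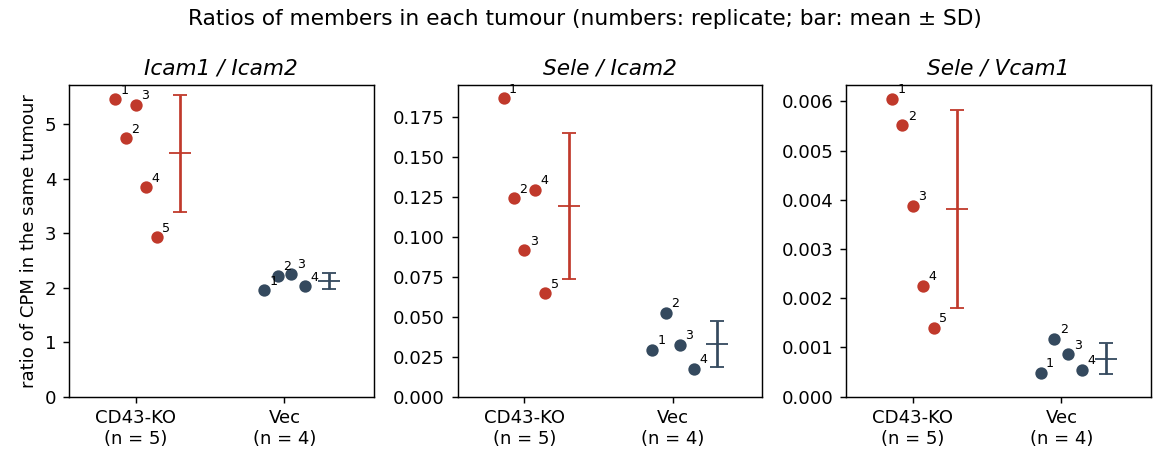
Ratio of the CPM of 2 members in the same tumour, CD43-KO on the left and Vec on the right; points are tumours with their replicate number, and bars give the mean ± SD. In all 3 panels every CD43-KO point is above every Vec point, as for Icam1 over Icam2 (2.93 to 5.46 in CD43-KO and 1.96 to 2.26 in Vec tumours).

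Since the members are made by vessel cells among others, their levels were also set against a score of 19 endothelial markers (mean log2 CPM) from the same tumour. The score was 2.67 to 3.74 in CD43-KO and 3.10 to 3.28 in Vec tumours, lowest in CD43-KO replicate 4 and highest in CD43-KO replicate 2. Relative to it, Sele was -3.98 ± 0.613 in CD43-KO (SD, n = 5) and -5.54 ± 0.389 in Vec tumours (SD, n = 4), a log2 difference of 1.55 (exact permutation p = 0.0238). CD43-KO replicates 1 to 4 lay close together, from -3.85 to -3.49, and CD43-KO replicate 5 was apart at -5.05, within the Vec range of -5.89 to -5.02. Icam1 relative to the score differed by 0.90 (exact permutation p = 0.0397), from 0.262 to 2.04 in CD43-KO and from -0.025 to 0.599 in Vec tumours. Vcam1 differed by -0.46 (exact permutation p = 0.143), Selp by 0.38 (exact permutation p = 0.452) and Icam2 by -0.14 (exact permutation p = 0.516). These 5 p-values are not adjusted. The exact permutation p of Sele was 0.0571 without any one of CD43-KO replicates 1 to 4, and that of Icam1 was 0.0857 to 0.107 when any tumour but CD43-KO replicate 5 was left out. Vcam1 had no overlap in CPM but overlapped once set against the endothelial score, since CD43-KO replicate 4 then had the highest value of all 9 tumours, 4.95.

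**Figure D3:**
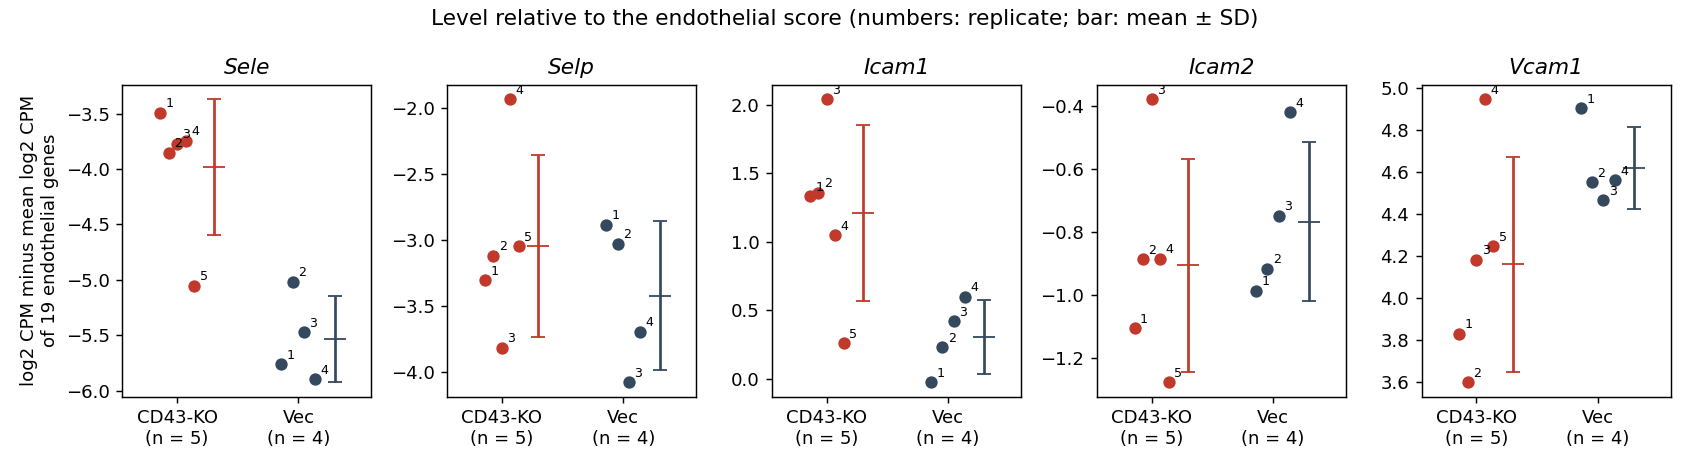
Log2 CPM of each member minus the mean log2 CPM of 19 endothelial genes in the same tumour, CD43-KO on the left and Vec on the right; points are tumours with their replicate number, and bars give the mean ± SD. For Sele, CD43-KO replicates 1 to 4 sit between -3.85 and -3.49, above all Vec tumours, and CD43-KO replicate 5 sits at -5.05.

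Over the 9 tumours, 25 relations were computed, 10 between members and 15 between a member and the endothelial, pan-leukocyte or macrophage score. In Icam1 and in both leukocyte scores CD43-KO replicates 1, 2 and 3 lay apart from the other 6 tumours, so no coefficient over all 9 is given for the 15 relations with these measures. Over all 9 tumours, 4 of these 15 had an adjusted p under 0.05 by the exact permutation test of Pearson's r. They were Icam1 with both leukocyte scores, Sele with Icam1, and Icam2 with the macrophage score. By the exact permutation test of Spearman's rho only Icam2 with the macrophage score did (adjusted p = 0.0328). The other 3 had an adjusted p of 0.154 to 0.208 by that rank test. In order of level, Sele was highest in CD43-KO replicates 1, 2 and 3, the 3 tumours with the most Icam1, and Icam2 was highest in CD43-KO replicates 3 and 2, which had the highest macrophage scores. Within the other 6 tumours, set apart after the values were seen, none of the 15 relations passed after adjustment over the 15. Leaving out the 3 tumours with the highest Icam1 and leukocyte scores narrowed the range of these measures. A weak coefficient among the 6 tumours therefore cannot show that a relation is absent. There Icam1 had r = -0.05 with the macrophage score (exact permutation p = 0.921, adjusted p = 0.921; rho = 0.03, exact permutation p = 1) and Sele had r = 0.37 with Icam1 (exact permutation p = 0.475, adjusted p = 0.736; rho = 0.26, exact permutation p = 0.658). Icam2 with the macrophage score had r = 0.86 in these 6 tumours (exact permutation p = 0.0153, adjusted p = 0.229; rho = 0.94, exact permutation p = 0.0167), and 0.73 without the 2 tumours farthest from the median of the score. Among the remaining 10 relations, that of Icam2 with the endothelial score had the smallest p (Pearson r = 0.73, exact permutation p = 0.0249, adjusted p = 0.0913; Spearman rho = 0.60, exact permutation p = 0.0968). Without CD43-KO replicates 2 and 4, the tumours farthest from the median of the score, its r was 0.47. Sele and Vcam1 had opposite signs of group difference and a negative coefficient over all 9 (r = -0.68, exact permutation p = 0.0471, adjusted p = 0.107; rho = -0.73, exact permutation p = 0.0311), and r was -0.44 without Vec replicate 1 and CD43-KO replicate 1. Each group has fewer than 6 tumours, and the relation was not tested apart from the group difference. None of these 10 passed after adjustment over the 25.

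**Figure D4:**
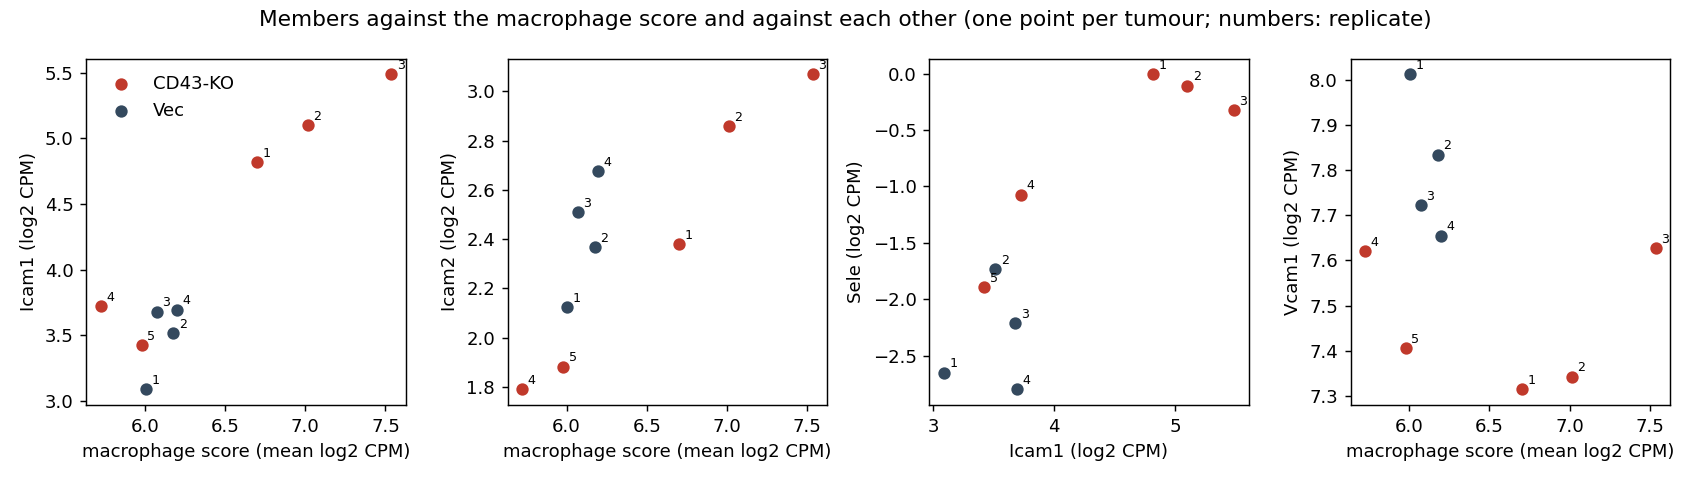
Log2 CPM of a member against the macrophage score or against Icam1, with 1 point per tumour, CD43-KO in red and Vec in dark blue. Icam1 is above 4.8 log2 CPM only in CD43-KO replicates 1, 2 and 3, whose macrophage scores of 6.70 to 7.54 exceed those of the other 6 tumours.

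The genes with the pattern most like each member over the 9 tumours were found by Pearson's r of log2 CPM among about 12440 names with a mean of at least 1 CPM, used only to rank them. For Icam1 they were Slc15a3, a lysosomal peptide transporter, Lfng, a glycosyltransferase acting on Notch, and Hk3, a hexokinase of myeloid cells. Since CD43-KO replicates 1 to 3 lie apart in Icam1, only Spearman's rho is given for these, 0.883 for Slc15a3, 0.900 for Lfng and 0.733 for Hk3. For Sele they were Rb1, the retinoblastoma gene (r = 0.973), Dennd3 (r = 0.959) and the kinase gene Mknk1 (r = 0.958). For Selp they were Zfp451, Usp6nl and Leo1 (r = 0.955 to 0.957), for Icam2 Cotl1, Fxyd2 and Fuca2 (r = 0.966 to 0.968), and for Vcam1 Rnf167, Magef1 and Hsd3b7 (r = 0.938 to 0.950). All of these are the highest of about 12440 coefficients over only 9 tumours, so values this large can arise by selection alone. Whether any of these genes is linked to a member was not tested. No member was among the 3 nearest of another, but Sele, with a mean under 1 CPM, was not among the names searched.

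Most cytokines tested that induce endothelial adhesion molecules had higher means in CD43-KO tumours, but none passed edgeR's test after adjustment. Of 13 such genes 9 were tested and 8 of these lay above 0 in log2 fold change. Their median was 1.15, against 0.027 over all names tested, and 6 were higher at an unadjusted edgeR p under 0.05. DESeq2 called 2 higher, Tnfsf14 and Il1a. Without CD43-KO replicate 3 the median was 0.74, and with the pan-leukocyte score as a covariate it was 0.543. The macrophage and pan-leukocyte sums given beside Icam1 were also highest in CD43-KO replicates 1 to 3, and their part was not tested beyond that fit. Il1b (interleukin 1 beta) was at 47.7, 44.4, 93.4, 41.5 and 11.7 CPM in CD43-KO replicates 1 to 5, against 9.60, 12.1, 19.4 and 19.1 CPM in Vec replicates 1 to 4 (log2 fold change 1.67 ± 0.489 SE, edgeR adjusted p = 0.216). As with Sele, 4 of 5 CD43-KO tumours lay above all Vec tumours and CD43-KO replicate 5 did not. The share of all names with this pattern was not counted. Il1b was highest in CD43-KO replicate 3, and Sele in CD43-KO replicate 1. Tnfsf14, a TNF family cytokine also known as LIGHT, was at 4.40 ± 1.29 CPM in CD43-KO (SD, n = 5) and 1.84 ± 0.400 CPM in Vec tumours (SD, n = 4) with no overlap, and its log2 fold change was 1.26 ± 0.260 (SE, edgeR adjusted p = 0.147). Of all names, 2.08% were likewise higher in every CD43-KO tumour than in every Vec tumour. Il1a was at 5.11 ± 1.67 CPM in CD43-KO (SD, n = 5) and 2.28 ± 0.605 CPM in Vec tumours (SD, n = 4), and the alarmin gene Il33 at 10.2 ± 3.84 CPM in CD43-KO and 13.5 ± 5.26 CPM in Vec tumours.

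The receptors and transcription factors that act downstream of these cytokines differed little as lists. Of 11 receptor genes 8 lay above 0 in log2 fold change (median 0.057). Tnfrsf1a and Tnfrsf1b, the TNF receptors, were at 104 ± 7.18 and 127 ± 12.7 CPM in CD43-KO (SD, n = 5) and at 108 ± 7.65 and 123 ± 12.5 CPM in Vec tumours (SD, n = 4). Il4ra and Osmr, the receptor chains for interleukin 4 and oncostatin M, had log2 fold changes of 0.52 ± 0.165 and 0.60 ± 0.200 (SE), with no overlap between the groups in either gene. Both were named for having the smallest p of the list, and 2.08% of all names were likewise higher in every CD43-KO tumour. Of 15 NF-kB and AP-1 regulators 10 lay above 0, with a median of 0.021, among them Rel (0.58 ± 0.202 SE) and the apoptosis inhibitor gene Birc3 (0.45 ± 0.164 SE). Jun, a subunit of AP-1, was at 440 ± 32.4 CPM in CD43-KO and 444 ± 54.4 CPM in Vec tumours, and Nfkb2, an NF-kB subunit, at 283 ± 46.4 CPM in CD43-KO and 304 ± 23.2 CPM in Vec tumours. No gene of either list passed the edgeR test after adjustment.

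On the leukocyte side, most genes tested of the integrins that bind the ICAMs and VCAM-1 had higher means in CD43-KO tumours, but none passed edgeR's test after adjustment. Of 9 genes 8 were tested, and 7 lay above 0 in log2 fold change (median 0.774). At an unadjusted edgeR p under 0.05 there were 5 higher, and DESeq2 called 2 higher, Itgal and Itgam. Itgal, the alpha chain of LFA-1, was at 30.2, 41.1, 47.1, 16.3 and 17.6 CPM in CD43-KO replicates 1 to 5, against 11.3, 17.1, 17.7 and 14.2 CPM in Vec replicates 1 to 4. Its high values stood in the same 3 CD43-KO tumours as those of its ligand gene Icam1. Itgam, the alpha chain of Mac-1, was at 92.2 to 214 CPM in CD43-KO and 69.1 to 100.2 CPM in Vec tumours, with a log2 fold change of 0.81 ± 0.232 (SE; adjusted p = 0.202 by edgeR). Itga4, the alpha chain of the VCAM-1 receptor VLA-4, was at 11.7 ± 4.39 CPM in CD43-KO (SD, n = 5) and 6.63 ± 1.43 CPM in Vec tumours (SD, n = 4; log2 fold change 0.82 ± 0.286 SE), while the log2 fold change of its ligand gene Vcam1 was below 0. The beta chain gene Itgb1, found on most cells, was at 707 ± 82.1 CPM in CD43-KO and 727 ± 54.9 CPM in Vec tumours, and Itgb7 at 313 ± 62.8 CPM in CD43-KO and 279 ± 13.2 CPM in Vec tumours. The leukocyte levels given beside Icam1 moved with these genes as well: with the pan-leukocyte score as a covariate the median of the list was 0.296.

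The selectin ligands differed in sign. Of the 9 genes listed with the selectin ligands, 5 lay above 0 and 4 below in log2 fold change (median 0.016), and none passed edgeR's test after adjustment. At an unadjusted edgeR p under 0.05 there were 2 lower, Cd34 and Spn, the knocked-out gene itself, whose direction the design set. Selplg, the main P-selectin ligand of leukocytes, was at 42.6, 57.9, 67.5, 25.6 and 27.7 CPM in CD43-KO replicates 1 to 5, against 24.4, 26.4, 31.9 and 31.5 CPM in Vec replicates 1 to 4. Its 3 high values were again in CD43-KO replicates 1 to 3. Cd34, a sialomucin of vessels and progenitor cells, was at 732 ± 48.1 CPM in CD43-KO (SD, n = 5) and 847 ± 27.4 CPM in Vec tumours (SD, n = 4; log2 fold change -0.21 ± 0.083 SE, edgeR adjusted p = 0.285). The most abundant endothelial marker, Plvap, was far lower, at 44.6 CPM in CD43-KO and 41.7 CPM in Vec tumours. Which cells made the Cd34 transcripts was not tested. Cd44, a ligand with many other roles, was at 463 ± 38.1 CPM in CD43-KO and 409 ± 54.7 CPM in Vec tumours. Of the 11 enzymes that build selectin ligand glycans 8 lay above 0 in log2 fold change (median 0.159) and none had an unadjusted edgeR p under 0.05. The galactosyltransferase gene B4galt1 was at 94.4 ± 6.39 CPM in CD43-KO and 93.1 ± 6.06 CPM in Vec tumours, and the tyrosine sulfotransferase gene Tpst2 at 72.7 ± 9.91 CPM in CD43-KO and 75.4 ± 5.07 CPM in Vec tumours. The fucosyltransferase genes Fut4 and Fut7 were the nearest to it, at 1.75 ± 0.714 and 2.22 ± 1.25 CPM in CD43-KO and at 1.06 ± 0.171 and 1.36 ± 0.442 CPM in Vec tumours.

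Genes of the vessel wall were tested alongside. Of 19 endothelial markers 15 lay above 0 in log2 fold change (median 0.171), and 0 had an unadjusted edgeR p under 0.05. Pecam1, a junction protein of endothelium, was at 34.2 ± 9.29 CPM in CD43-KO (SD, n = 5) and 28.7 ± 1.18 CPM in Vec tumours (SD, n = 4), and Plvap, a protein of fenestrated vessels, at 44.6 ± 12.1 CPM in CD43-KO and 41.7 ± 3.83 CPM in Vec tumours. The angiopoietin receptor gene Tek was at 3.21 ± 2.26 CPM in CD43-KO and 1.73 ± 0.439 CPM in Vec tumours, and the endothelial nitric oxide synthase gene Nos3 at 4.99 ± 1.03 CPM in CD43-KO and 6.21 ± 0.677 CPM in Vec tumours. Of 12 junction molecules of transmigration 6 lay above 0 and 6 below, with Cd47 at 123 ± 11.5 CPM in CD43-KO and 123 ± 4.02 CPM in Vec tumours, Pvr at 81.0 ± 5.49 CPM in CD43-KO and 65.5 ± 10.4 CPM in Vec tumours, and Mcam at 28.9 ± 6.81 CPM in CD43-KO and 21.5 ± 1.69 CPM in Vec tumours. Among 8 genes of activated or high endothelial venules, Glycam1, Madcam1 and Chst4 did not pass the filter, at no more than 0.401 CPM in any tumour, and the 5 tested lay above 0 (median 0.466), with 0 at an unadjusted edgeR p under 0.05. This median was 0.160 without Vec replicate 1, 0.183 without CD43-KO replicate 1, 0.291 without Vec replicate 2, 0.296 without Vec replicate 4, 0.303 without CD43-KO replicate 4 and 0.148 with the stricter filter. The most abundant of them were the sulfotransferase gene Chst2, at 18.1 ± 2.97 CPM in CD43-KO and 16.4 ± 0.773 CPM in Vec tumours, and Ch25h, at 14.02 ± 6.18 CPM in CD43-KO and 10.1 ± 4.81 CPM in Vec tumours. Of 5 other immunoglobulin adhesion genes tested all lay above 0 (median 0.224). Alcam was at 16.8 ± 4.81 CPM in CD43-KO and 12.2 ± 2.19 CPM in Vec tumours, and Ncam1 at 8.39 ± 2.80 CPM in CD43-KO and 7.19 ± 1.06 CPM in Vec tumours. Icam4 was at 0.435 ± 0.0723 CPM in CD43-KO and 0.282 ± 0.102 CPM in Vec tumours, and Icam5 at 0.778 ± 0.169 CPM in CD43-KO and 0.698 ± 0.189 CPM in Vec tumours.

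**Figure D5:**
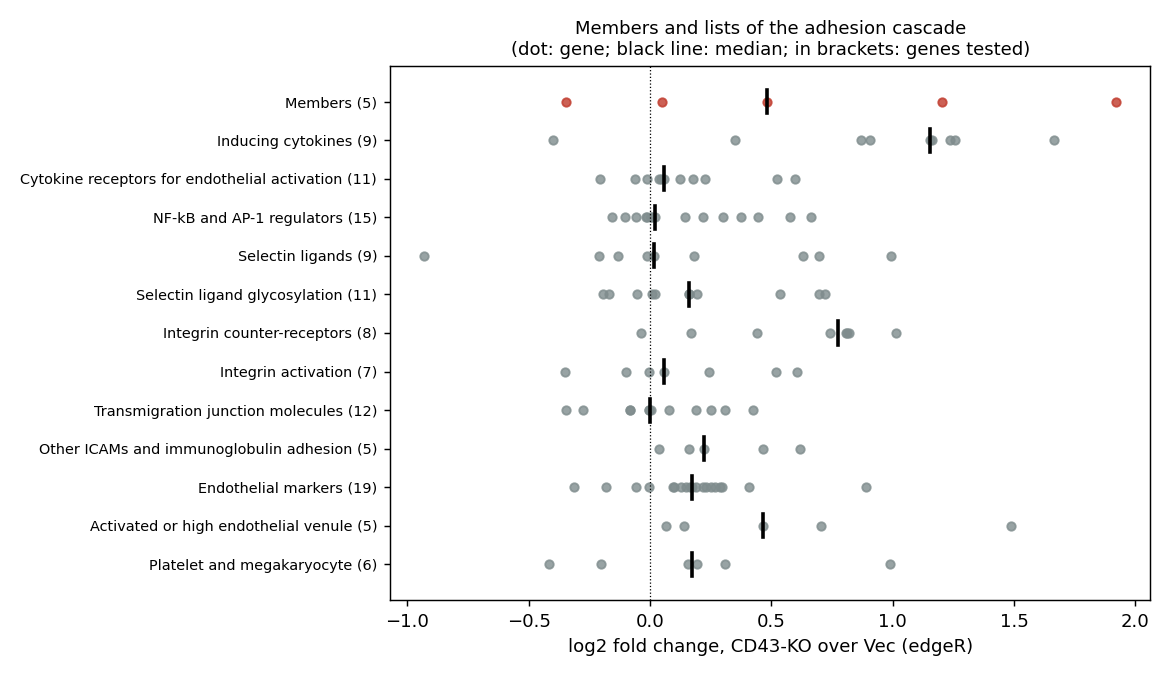
Log2 fold change of CD43-KO over Vec (edgeR) for the 5 members in red and for genes of 12 lists of the adhesion cascade in grey, with 1 dot per gene tested and a black line at the median. The inducing cytokines (median 1.15) and the integrin counter-receptors (median 0.774) lie mostly to the right of 0, and the members spread from -0.34 (Vcam1) to 1.92 (Sele).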

How the data were processed

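RNA of 9 tumours was sequenced, per the labels' protocols from TRIzol extracts with an unspecified strand setting. Each library has 1 deposited table of raw counts, with a whole number beside every gene name. HISAT2 2.1.0, StringTie 1.3.5, DESeq2 and the build GRCm38 are named in the submitters' processing notes, without roles; no source used here gives the counting step, annotation or filters. More names had a count of 2 than of 1 in each library, so counts may not be independent fragments.

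Nothing in the labels gives a batch. Names were kept by filterByExpr (minimum count 10, minimum total 15), scaled by TMM and tested with edgeR 4.0.16 (R 4.3.3), quasi-likelihood F test, robust, group only, Benjamini-Hochberg over 18243 names, threshold 0.05. SEs are the log2 fold change over the square root of F. Levels are TMM-scaled CPM, and log2 CPM uses a prior count of 2. Alternatives used DESeq2 1.42.0, limma 3.58.1 voom, other scalings and filters, covariates, and each library left out. The code was checked on simulated data.

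Members and gene lists were chosen with earlier results of these data known. Ratios of members, relations within 6 tumours, the runs of DESeq2 without single libraries and the motif letters were added after the values were seen. In lists described, the 2 most abundant genes and the 2 with the smallest p were to be named; Itga4, Selplg and Icam5 were added as partners or relatives after their values were seen. Lists of other cell types are given mainly by their sums. Replicates were numbered in deposition order; nothing says more of their origin than separate tumours, so p-values measure the spread between these samples. Exons overlap genes on the opposite strand in Selp (186 and 438 bases), Icam1 (511 bases) and Vcam1 (61 bases, GENCODE M21); such reads cannot be told apart here.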

Additional observations from a re-analysis of the deposited data

Results flagged for a closer look

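Sele relative to the endothelial score was far from the other CD43-KO tumours in CD43-KO replicate 5, at -5.05 log2 against -3.85 to -3.49 in CD43-KO replicates 1 to 4. The gap to the nearest tumour was 0.767 of the group's whole range, above the 95% limit of 0.71 for 5 samples. It was the only 1 of 42 groups of values checked this way that passed its limit, and about 1 group in 20 is expected to pass by chance.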

How the results depend on the processing

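Sele, Selp and Icam1 stayed above 0 and Vcam1 below 0 in log2 fold change of CD43-KO over Vec under every alternative run for edgeR, DESeq2 and limma voom, and edgeR called 0 members without any one library. DESeq2 called 247 genes higher and 365 lower and 2 members, with log2 fold changes of 1.93 for Sele and 1.19 for Icam1. Voom called 165 higher and 332 lower and 1 member, Vcam1 at -0.47, and gave list medians of 0.90 for activated or high endothelial venules, -0.11 for platelets, 0.15 for muscle and -1.59 for adipocytes. Without a filter edgeR called 1 gene lower. With total counts only the median over all names was 0.11 and that of the shedding genes 0.145, and the exact permutation differences were 0.062 for Icam2 (opposite in sign) and -0.26 for Vcam1 (p = 0.0556). Icam2 was at -0.14 with the endothelial score as a covariate and at -0.45 with the pan-leukocyte score. With the pan-leukocyte score the list medians were 0.064 for activated venules, 0.015 for glycosylation, 0.296 for integrins, 0.543 for inducing cytokines, -0.113 for cytokine receptors, -0.046 for pan-leukocyte, -0.124 for macrophage, 0.113 for T cell, -0.172 for muscle and -1.962 for adipocyte genes.

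Leaving out each library in turn, edgeR called 0 to 8 genes higher and 0 to 21 lower, the most without Vec replicate 3. Icam2 ranged from -0.15 to 0.18 with edgeR, below 0 without Vec replicate 1 (-0.053), CD43-KO replicate 2 (-0.060) or CD43-KO replicate 3 (-0.148), and from -0.144 to 0.17 with DESeq2. Relative to the endothelial score, Sele ranged from 1.43 to 1.82, Icam1 from 0.69 to 1.14 and Vcam1 from -0.66 to -0.32, with exact permutation p = 0.0286 for Vcam1 without CD43-KO replicate 4. List medians ranged from -0.035 to 0.311 for epithelial, -0.154 to 0.330 for platelet, 0.011 to 0.199 for glycosylation, 0.027 to 2.05 for muscle and -1.946 to 2.059 for adipocyte genes; muscle and adipocyte medians were lowest without CD43-KO replicate 3. Without the 2 tumours farthest on the x axis, r was -0.011 for Sele with Selp, -0.10 for Selp with Icam2, 0.96 for Sele with the endothelial score and 0.39 for Icam2 with the pan-leukocyte score. The cause of these shifts was not tested.

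With counts of 6 to 63, Sele was not kept by the stricter filter (1 CPM in 4 libraries). No paired analysis was possible because the labels give no replicate numbers shared between the groups.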

Other observations

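Genes of leukocyte types that use these adhesion molecules were counted as well. Of 8 T cell markers 7 were tested and all 7 lay above 0 in log2 fold change of CD43-KO over Vec (median 1.10, 0.707 without CD43-KO replicate 3 and 0.113 with the pan-leukocyte score as a covariate), 3 of them higher at an unadjusted edgeR p under 0.05. Their summed levels of 21.9 and 31.4 CPM in CD43-KO replicates 4 and 5 lay within the Vec range of 21.5 to 35.6 CPM, while CD43-KO replicates 1, 2 and 3 lay above it. Cd2 was at 4.54 ± 3.02 CPM in CD43-KO (SD, n = 5) and 1.78 ± 0.447 CPM in Vec tumours (SD, n = 4), and Cd8a at 19.9 ± 11.8 CPM in CD43-KO and 10.6 ± 1.91 CPM in Vec tumours. The neutrophil genes were split: Csf3r, the receptor of the growth factor G-CSF, was at 11.4 ± 6.08 CPM in CD43-KO and 4.15 ± 0.550 CPM in Vec tumours with no overlap, while S100a8 was at 15.6 ± 15.3 CPM in CD43-KO and 18.4 ± 14.05 CPM in Vec tumours. Csf3r did not pass edgeR's test after adjustment, and 2.08% of all names likewise had every CD43-KO value above every Vec value.

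Genes that act on integrins or on the cut and anchorage of adhesion molecules differed less. Of 7 integrin activation genes tested, 4 lay above 0 and 3 below (median 0.056). Rap1a, a small GTPase that activates integrins, was at 151 ± 24.5 CPM in CD43-KO (SD, n = 5) and 193 ± 16.8 CPM in Vec tumours (SD, n = 4), and the talin gene Tln1 at 362 ± 70.7 CPM in CD43-KO and 363 ± 54.3 CPM in Vec tumours. Adam17, the protease that sheds several adhesion molecules, was at 76.8 ± 6.43 CPM in CD43-KO and 64.9 ± 11.3 CPM in Vec tumours. Of 5 lymphatic genes 4 lay above 0 (median 0.247, and -0.099 to 0.452 with 1 library left out, lowest without CD43-KO replicate 2). The chemokine gene Ccl21a was at 5.97 ± 3.46 CPM in CD43-KO and 2.88 ± 0.544 CPM in Vec tumours, and the hyaluronan receptor gene Lyve1 at 3.41 ± 1.83 CPM in CD43-KO and 4.33 ± 2.16 CPM in Vec tumours.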
